A study of Homo sapiens with 60 samples.

Results

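The integrated stress response genes described here are 10 genes taken by name from the 60675 genes of a count table of HT29 cells: ATF4, ATF5, ATF3, DDIT3, TRIB3, DDIT4, SESN2, CHAC1, ADM2 and GDF15. All 10 were in the table under 1 identifier each, and all 10 were among the 16484 genes that passed the filter on low counts. HT29 is an established human colorectal adenocarcinoma line. Its RNA was sequenced 24 h after exposure to vehicle (DMSO, 0.1% per the sample labels and 2% per the series' design text) or to a hot-water extract used in Korean herbal medicine, at 500 (high), 100 (medium) or 20 µg/mL (low dose). Extracts came from 1 herb each, namely Aconiti Lateralis Radix Preparata (aconite root after processing, here aconite), Cimicifugae Rhizoma (here cimicifuga), Bupleuri Radix (here bupleurum) and Citri Unshius Pericarpium (here citrus peel), or from the herbal mixtures Banhasasim-tang, Bojungikgi-tang and Yijung-tang. Vehicle and each dose of 6 extracts had 3 libraries, which gives 57 libraries in 19 groups, whereas each Bojungikgi-tang dose was sequenced once. The labels do not state whether the libraries of a group came from separate cultures, so p-values measure only the spread between libraries, which may be technical.

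The integrated stress response is a shared answer of cells to lack of amino acids, unfolded protein in the endoplasmic reticulum, haem deficiency, double-stranded RNA or mitochondrial damage. Kinases sensing these conditions phosphorylate the translation factor eIF2, general protein synthesis falls, and the messenger RNA of ATF4, which carries short upstream reading frames, is translated more. ATF4 protein then binds DNA with other basic leucine zipper (bZIP) proteins and raises genes for amino acid import, amino acid synthesis and tRNA charging, as well as the genes described here. The counts measure messenger RNA, not eIF2 phosphorylation or ATF4 protein.

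Libraries held 10.35 to 40.05 M counts, the median being 23.83 M. Sample codes place vehicle, citrus peel with cimicifuga, bupleurum with aconite, Yijung-tang with Banhasasim-tang, and Bojungikgi-tang in 5 separate sets. All sample titles carry the label BatchB. Each comparison with vehicle is therefore also one between sets, which cannot be told apart from the extract, whereas comparisons of doses of an extract, or of extracts that share a set, stay within 1 set. The labels give a DMSO share for vehicle only, so comparisons with vehicle may also differ in DMSO. Of the colon epithelial markers, 14 of 14 had a mean of at least 1 CPM (counts per M counts of the scaled library total), with a summed level of 10510 to 14120 CPM per library. Fibroblast markers reached that level for 1 of 10 (COL1A1, 1.297 CPM), endothelial markers for 1 of 8 (PECAM1, 1.81 CPM) and leukocyte markers for 4 of 12, led by lysozyme (LYZ, 1682 CPM). An earlier analysis of these data set 4 libraries apart, whose root mean square deviations from their group means over genes, 0.287 to 0.482 on the log2 scale, are not the 4 highest of the 57: library 2 of aconite at the high dose, library 2 of Banhasasim-tang at the high dose, library 1 of vehicle and library 2 of bupleurum at the medium dose. The signal recognition particle RNA RN7SL2 lay at 3.45 to 9.90 CPM in vehicle and in libraries 1 and 2 of every citrus peel and cimicifuga group, and at 40.9 to 237 CPM in the other libraries.

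The stretch before the start site of 3 genes is shown first, because CHAC1 and ADM2 rose most under aconite and because CHAC1 and ATF3 were the members whose promoter window held the letters bound by ATF4 with a C/EBP partner. The sequences are from RefSeq on GRCh38.p14, plus strand, 5′ to 3′, and cover the 250 bases before the start site. Capitals mark a match to the C/EBP-ATF response element (CARE), searched as TGATGNAAN on both strands.
CHAC1, chr15:40953221-40953470: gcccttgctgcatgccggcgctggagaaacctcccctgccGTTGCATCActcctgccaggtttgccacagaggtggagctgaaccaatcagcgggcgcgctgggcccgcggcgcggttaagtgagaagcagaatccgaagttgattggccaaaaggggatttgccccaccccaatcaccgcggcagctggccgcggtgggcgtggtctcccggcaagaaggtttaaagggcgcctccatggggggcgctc
ATF3, chr1:212565157-212565406: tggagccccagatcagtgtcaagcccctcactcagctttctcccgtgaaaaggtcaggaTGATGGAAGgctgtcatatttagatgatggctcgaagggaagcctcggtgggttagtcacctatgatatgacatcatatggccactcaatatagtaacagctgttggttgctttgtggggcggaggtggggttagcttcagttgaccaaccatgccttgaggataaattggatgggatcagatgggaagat
ADM2, chr22:50481293-50481542: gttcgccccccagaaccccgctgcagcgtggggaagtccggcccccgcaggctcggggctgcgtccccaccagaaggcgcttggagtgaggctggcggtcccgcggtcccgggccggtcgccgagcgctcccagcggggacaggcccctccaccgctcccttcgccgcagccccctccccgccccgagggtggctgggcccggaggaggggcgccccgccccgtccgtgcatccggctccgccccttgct

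All 10 genes had a window of 300 bases, from 250 before to 50 after a start site, with 17 windows in all. In CHAC1 the match lay on the minus strand, 210 to 202 bases before the start site, and in ATF3 on the plus strand, 191 to 183 bases before the first of its start sites. Over the whole RefSeq promoter table, CARE was found in 3.61% of 35116 windows and for 4.45% of 27305 genes. The cyclic AMP response element core TGACGT matched in 0 of the 10 genes and for 9.64% of all genes. CCAAT, the letters bound by NF-Y, matched in 6 genes (ATF3, CHAC1, DDIT3, DDIT4, GDF15 and SESN2) and for 39.7% of all genes. A match is a description of letters, not a binding site, and no match says only that these letters are absent from this window.

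In vehicle the order of the levels, as CPM per kilobase of exon, was led by ATF4 with 102.6 ± 7.1 (SD, n = 3). ATF5 followed with 30.2 ± 2.5, GDF15 with 19.4 ± 1.3, TRIB3 with 12.8 ± 0.43 and DDIT4 with 9.89 ± 0.35. DDIT3 reached 4.78 ± 0.62, SESN2 3.67 ± 0.31, CHAC1 1.297 ± 0.233, ATF3 0.604 ± 0.131 and ADM2 0.380 ± 0.057. No neighbours in this order overlapped over the 3 vehicle libraries.

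Most of the changes in these genes were under aconite at the high dose. Against the low dose, CHAC1 rose 7.12-fold, ADM2 4.39-fold and DDIT4 3.70-fold, ATF3, TRIB3 and SESN2 rose between 2.03-fold and 2.15-fold, and DDIT3, ATF4 and GDF15 rose 1.84-fold, 1.602-fold and 1.32-fold. ATF5 did not rise. Against the low dose of the same set, 9 of 10 genes were higher and 0 lower by edgeR's quasi-likelihood test (passing the test means here an adjusted p, by Benjamini-Hochberg, under 0.05), where 10.8% of all tested genes passed in either direction and 5.81% were higher. The median log2 fold change was 1.04 over the 10 genes and 0.005 over all genes tested. For 8 of the 10 genes all 3 of these libraries lay above all 57 other libraries of the series, the exceptions being ATF5 and GDF15. How many of all tested genes did so was not counted.

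**Figure D1:**
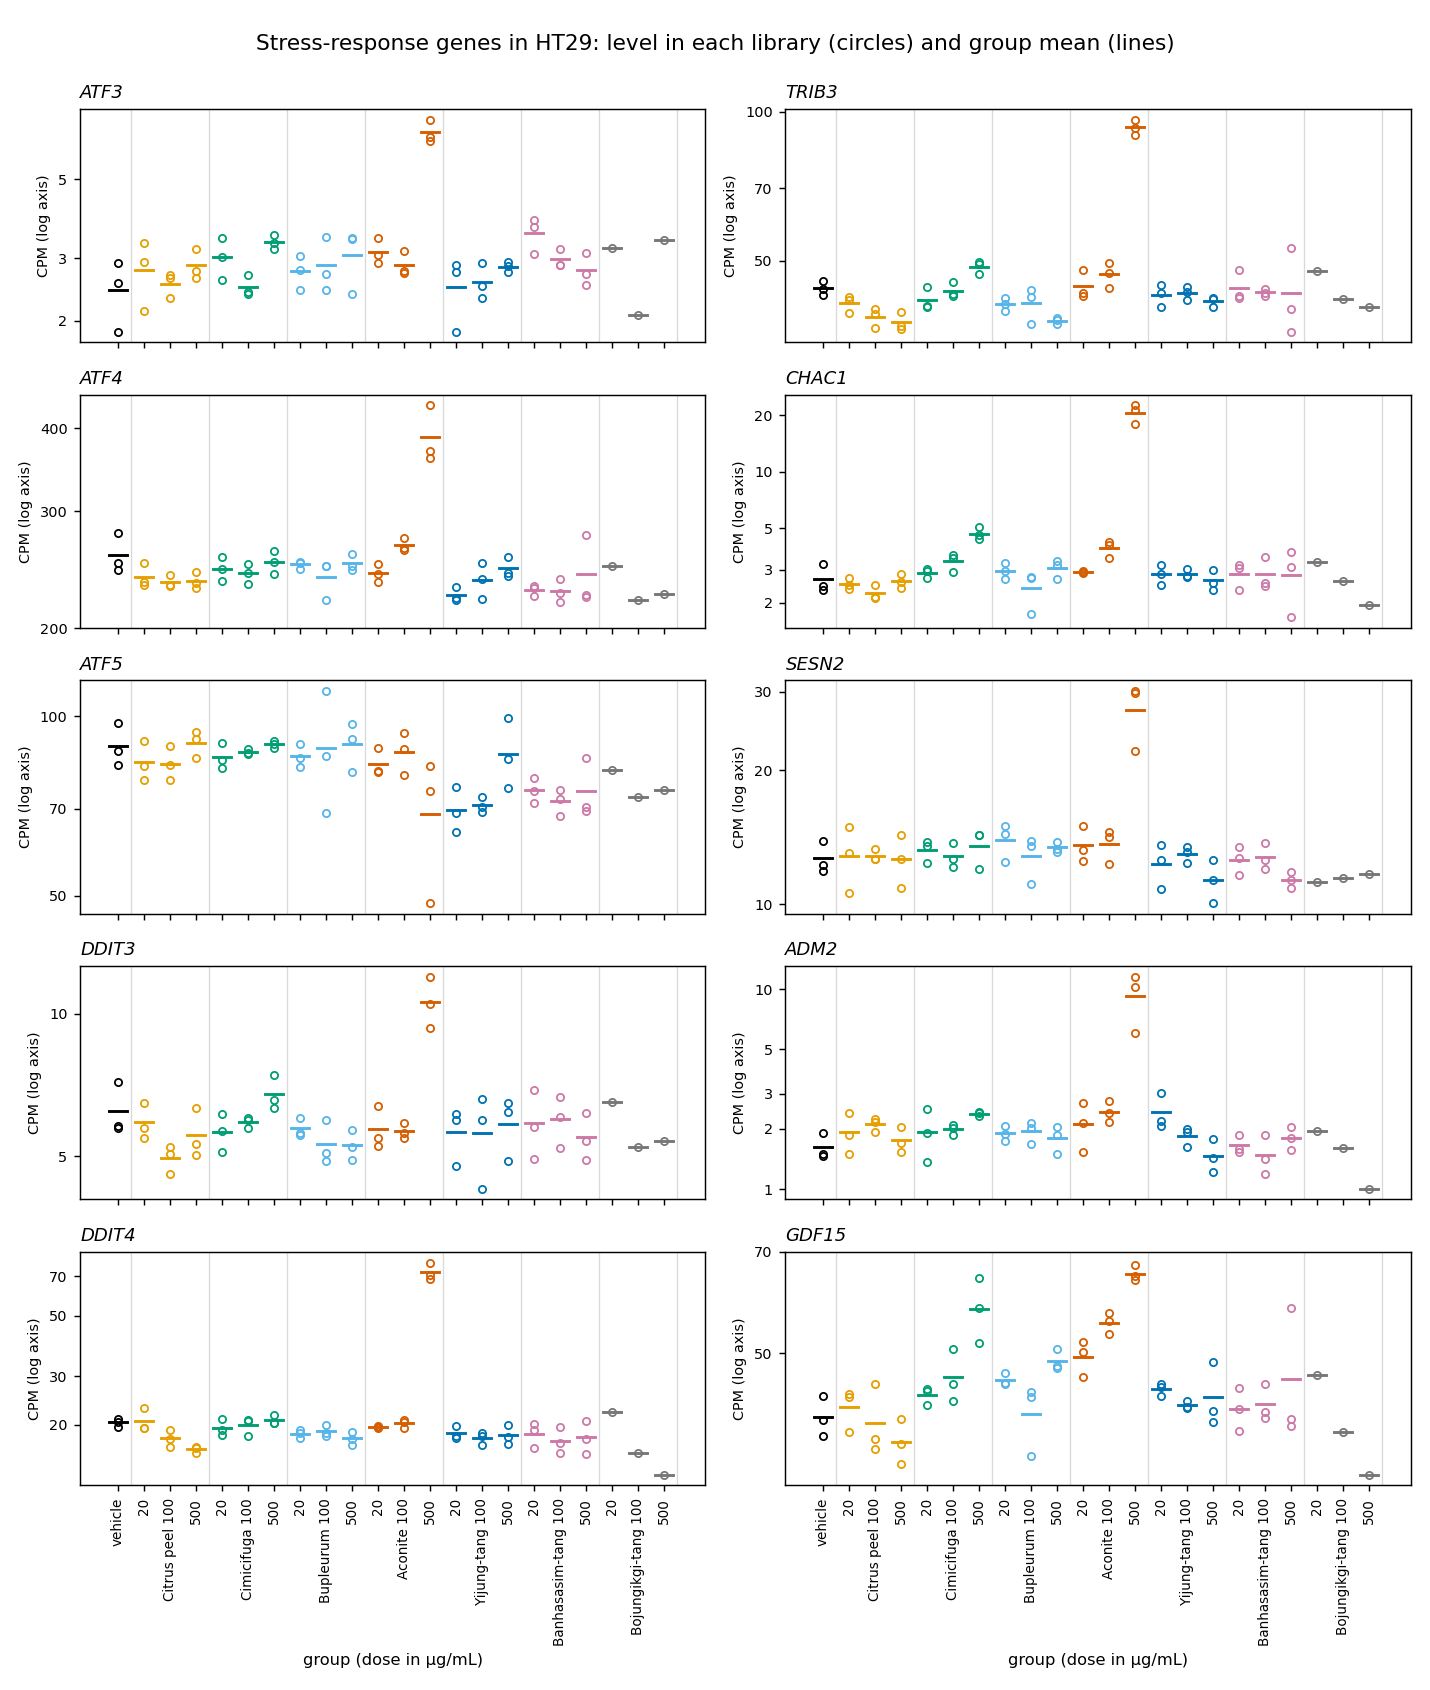
Level of each gene in each of the 60 libraries, in CPM on a log axis, by extract and dose in µg/mL (circles: libraries, lines: group means). The 3 libraries of aconite at 500 µg/mL sit above all others for CHAC1 (18.01 to 22.61 CPM, others at most 5.04) and for 7 further genes. How many of all tested genes do so was not counted. ATF5 has its lowest library there (48.6 CPM).

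ATF4 (ENSG00000128272, chr22:39519695-39522685, plus strand; positions here and below are of GRCh38 with GENCODE 29) is the central transcription factor of the response. At the high dose of aconite its libraries 1, 2 and 3 had 370, 434 and 360 CPM, at the low dose 242, 235 and 250 CPM, and in vehicle 278, 251 and 245 CPM. All 3 high-dose libraries were above both groups, with library 2 highest. The other 57 libraries of the series ran from 219 to 278 CPM with a median of 242 CPM. ATF4 messenger RNA rose by 0.68 ± 0.06 on the log2 scale against the low dose (± standard error, edgeR adjusted p = 2.57e-11), a fold of 1.602.

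DDIT3 (ENSG00000175197, chr12:57516588-57521737, minus strand) encodes CHOP, a bZIP factor that ATF4 induces and that takes part in cell death under lasting stress. It had 10.47, 11.96 and 9.32 CPM in libraries 1 to 3 at the high dose, 5.25, 5.46 and 6.38 CPM at the low dose, and 7.17, 5.74 and 5.80 CPM in vehicle. The highest of the other 57 libraries was library 1 of cimicifuga at the high dose with 7.44 CPM. The rise was 0.88 ± 0.12 against the low dose (edgeR adjusted p = 8.39e-07) and 0.76 ± 0.12 against vehicle (edgeR adjusted p = 1.31e-05). DDIT3 overlaps AC022506.1 on its own strand and MARS and MBD6 on the other, and the strand setting of the counting is not given in the sources used here, so its counts are less certain than those of genes that stand alone.

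ATF3 (ENSG00000162772, chr1:212565334-212620777, plus strand) is a bZIP factor of the ATF family that stress and growth signals induce quickly. It had 6.42, 7.36 and 6.58 CPM at the high dose of aconite against 3.41, 3.06 and 2.91 CPM at the low dose and 1.86, 2.56 and 2.90 CPM in vehicle. Its fold was 2.15 against the low dose (log2 1.11 ± 0.14, edgeR adjusted p = 9.23e-08) and 2.73 against vehicle (log2 1.45 ± 0.15, edgeR adjusted p = 2.14e-10). Among the 19 groups with 3 libraries, vehicle had the lowest mean for ATF3, 2.44 CPM, and Banhasasim-tang at the low dose the highest apart from aconite at the high dose, 3.53 CPM.

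ATF5 (ENSG00000169136, chr19:49928702-49933935, plus strand), a bZIP factor whose translation is controlled by upstream reading frames much as that of ATF4, did not share the rise. Libraries 1, 2 and 3 at the high dose of aconite had 82.6, 48.6 and 74.9 CPM, those at the low dose 88.5, 80.6 and 80.8 CPM, and those of vehicle 97.3, 87.5 and 82.8 CPM. The high-dose libraries overlapped the low-dose libraries and lay below vehicle, library 2 by far the lowest. ATF5 was lower than in vehicle, with a log2 fold change of -0.37 ± 0.12 (edgeR adjusted p = 0.0287), and its value against the low dose was -0.27 ± 0.12 (edgeR adjusted p = 0.145). The value against the low dose passed without library 1 of the high dose (-0.41, adjusted p = 0.0211) and with no filter on low counts (-0.26, adjusted p = 0.0252). The call against vehicle ended without library 2 of aconite (-0.19, adjusted p = 0.248), without library 1 of vehicle (-0.30, adjusted p = 0.139) and without library 2 of vehicle (-0.38, adjusted p = 0.0548). Some herbal mixtures had ATF5 means nearly as low as the 68.7 CPM of aconite at the high dose (vehicle 89.2 CPM). Yijung-tang had 69.6 CPM at the low and 71.0 CPM at the medium dose, and Banhasasim-tang 72.1 CPM at the medium dose. Against vehicle these did not pass (edgeR adjusted p = 0.106, 0.132 and 0.140), but all passed with no filter on low counts (0.00117, 0.00497 and 0.00768). ATF5 also overlaps IL4I1, NUP62 and AC011452.1 on the other strand.

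TRIB3 (ENSG00000101255, chr20:362835-397559, plus strand) is a Tribbles pseudokinase that ATF4 and DDIT3 induce and that in turn holds back their activity. It had 96.4, 89.6 and 92.7 CPM at the high dose of aconite, 43.1, 42.3 and 47.9 CPM at the low dose, and 45.5, 43.8 and 42.6 CPM in vehicle. The fold was 2.09 against the low dose (log2 1.07 ± 0.07, edgeR adjusted p = 3.52e-15). The highest of the other libraries, library 2 of Banhasasim-tang at the high dose, had 53.1 CPM.

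DDIT4 and SESN2 encode inhibitors of the growth kinase complex mTORC1. DDIT4 (ENSG00000168209, chr10:72273920-72276036, plus strand) had 68.2, 78.5 and 70.8 CPM at the high dose of aconite, and its medium-dose libraries, at 20.4, 19.4 and 20.7 CPM, lay where vehicle did (21.0, 19.6 and 20.4 CPM). At the low dose it had 19.5, 19.5 and 19.7 CPM. Its fold of 3.70 against the low dose (log2 1.89 ± 0.08, edgeR adjusted p = 8.12e-23) was thus seen at 500 and not at 100 µg/mL. DDIT4 overlaps its antisense gene DDIT4-AS1, which counts made without strand could not tell from it.

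SESN2 (ENSG00000130766, chr1:28259527-28282491, plus strand), a leucine-binding sestrin, had 29.73, 22.02 and 30.08 CPM at the high dose of aconite and 13.2, 14.9 and 12.5 CPM at the low dose. Vehicle had 11.9, 12.3 and 13.9 CPM. Library 2 was lower than the other two but still above the highest of the 57 other libraries (15.0 CPM, library 1 of bupleurum at the low dose). The fold was 2.03 against the low dose (log2 1.02 ± 0.11, edgeR adjusted p = 6.25e-10).

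CHAC1 (ENSG00000128965, chr15:40952962-40956519, plus strand), an enzyme that splits glutathione and a target of ATF4 and ATF3, had the largest fold of the 10. Libraries 1, 2 and 3 had 22.61, 18.01 and 21.37 CPM at the high dose of aconite, 4.23, 3.47 and 4.06 CPM at the medium dose, 2.95, 2.87 and 2.91 CPM at the low dose, and 3.22, 2.34 and 2.45 CPM in vehicle. The medium-dose libraries were all above the low-dose and vehicle libraries, and the high-dose libraries were far above all of these. CHAC1 rose 7.12-fold against the low dose (log2 2.83 ± 0.15, edgeR adjusted p = 6.31e-20) and 7.89-fold against vehicle (log2 2.98 ± 0.15, edgeR adjusted p = 1.43e-20).

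ADM2 and GDF15 encode secreted proteins. ADM2 (ENSG00000128165, chr22:50481556-50486440, plus strand), the peptide hormone adrenomedullin 2, was the least abundant gene in vehicle, with 1.469, 1.498 and 1.904 CPM. It had 10.2, 6.05 and 11.5 CPM at the high dose of aconite and 2.699, 2.146 and 1.526 CPM at the low dose. Library 2 was again lowest of the 3, and above the highest of the other libraries (3.03 CPM, library 3 of Yijung-tang at the low dose). The fold was 4.39 against the low dose (log2 2.13 ± 0.19, edgeR adjusted p = 3.97e-12) and 5.81 against vehicle (log2 2.54 ± 0.20, edgeR adjusted p = 6.60e-14).

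GDF15 (ENSG00000130513, chr19:18374731-18389176, plus strand) is a stress-induced hormone of the TGF-β superfamily that acts on the hindbrain receptor GFRAL. It had 67.0, 64.7 and 63.7 CPM at the high dose of aconite, 55.7, 53.2 and 57.1 CPM at the medium dose, 50.2, 46.3 and 51.9 CPM at the low dose, and 43.39, 39.99 and 37.99 CPM in vehicle. Each of these 4 groups lay above the next without overlap. GDF15 was 1.32 times as high at the high as at the low dose (log2 0.40 ± 0.10, edgeR adjusted p = 0.00382). Against vehicle the log2 fold changes were 0.69 ± 0.10 at the high dose (edgeR adjusted p = 7.20e-07), 0.45 ± 0.10 at the medium dose (edgeR adjusted p = 0.00219) and 0.29 at the low dose, where the test was not passed (edgeR adjusted p = 0.137).

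Against vehicle, 9 genes were higher and 1 lower at the high dose of aconite, where 15.9% of all tested genes passed. At the medium dose CHAC1 (0.57 ± 0.16, edgeR adjusted p = 0.0322) and GDF15 passed, 2 of 10 where 4.67% of all genes did. The CHAC1 call at the medium dose ended without library 2 (adjusted p = 0.187) or 3 (0.0992) of vehicle and without library 1 (0.148) or 3 (0.119) of that dose. At the low dose 0 of 10 passed, 2 had an unadjusted p under 0.05 and DESeq2 called 0, where 1.61% of all genes passed. Shares of all tested genes at an unadjusted p under 0.05 are not given here or below.

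The spread in these tests was shared by all 19 groups. When the fit held the compared groups alone, 8 of 10 genes passed between the high and low dose of aconite, GDF15 with an adjusted p of 0.106 being lost, and 7 of 10 against vehicle, with ATF4 (adjusted p = 0.0681), DDIT3 (0.0692) and ATF5 (0.493) lost. The share of all tested genes passing in these smaller fits is not given here. Library 2 at the high dose had ribosomal protein genes higher by a median of 0.45 on the log2 scale than its group mean and RN7SL2 at 237 CPM against 71.7 and 56.2 CPM in libraries 1 and 3. Without it and the other 3 libraries named above, the 9 rises between high and low dose all passed, whereas the ATF5 call against vehicle ended (-0.11, adjusted p = 0.471). The mitochondrial ribosomal RNAs moved with the group: MT-RNR1 had 32010, 32720 and 29380 CPM in its libraries and 813 to 3474 CPM in the 57 others, and their part in the result was not tested.

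**Figure D2:**
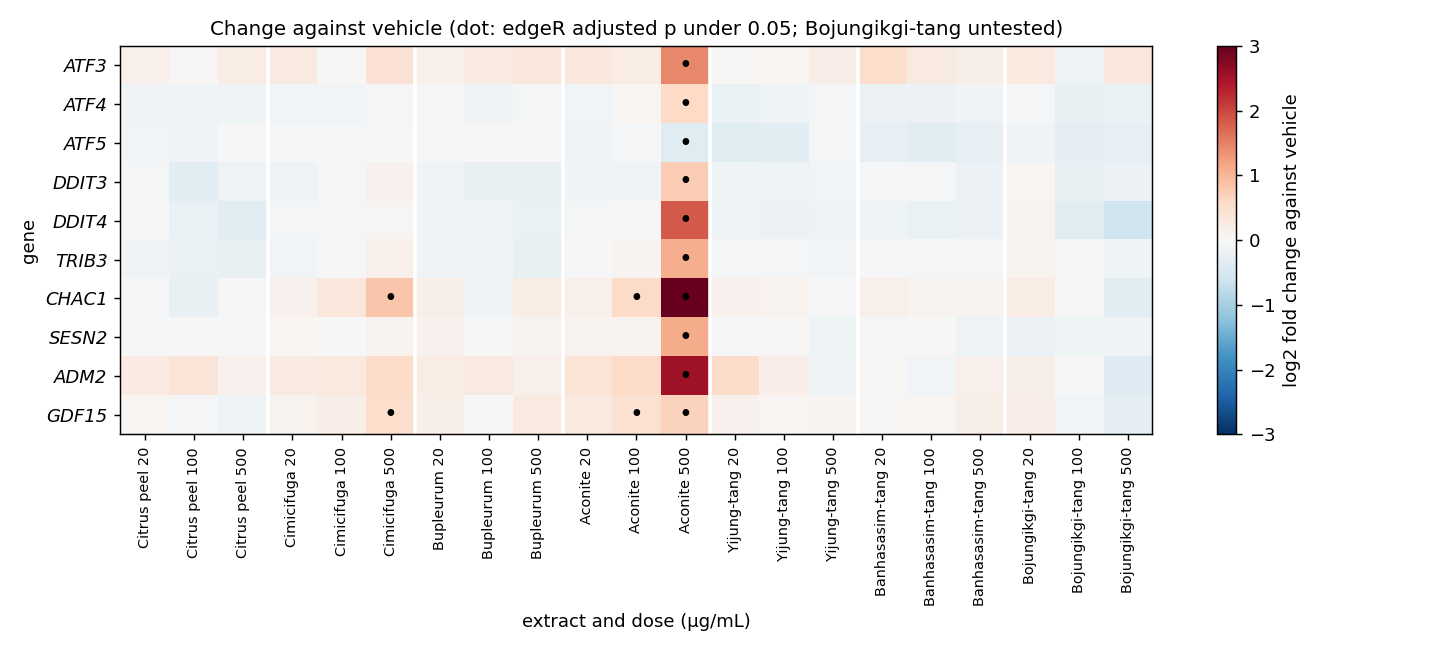
Log2 fold change of the 10 genes against vehicle for every extract and dose (red higher, blue lower, dots mark an edgeR adjusted p under 0.05). The dots lie in aconite at 500 µg/mL (10 genes), aconite at 100 µg/mL (CHAC1 and GDF15) and cimicifuga at 500 µg/mL (CHAC1 and GDF15), and Bojungikgi-tang, shown by its log2(CPM + 1) ratio, has no test.

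Aconite and bupleurum share a sample-code set, so the extracts could be compared at the same dose without a change of set. At the high dose 9 genes were higher with aconite than with bupleurum and 1, ATF5, was lower, where 9.86% of all tested genes passed. CHAC1 had 2.68, 3.32 and 3.17 CPM with bupleurum, which put aconite 2.76 ± 0.14 log2 units higher (edgeR adjusted p = 4.43e-20). DDIT4 had 18.8, 16.9 and 17.7 CPM with bupleurum, a difference of 2.03 ± 0.08 (edgeR adjusted p = 4.07e-24). ATF5 differed by -0.38 ± 0.12 (edgeR adjusted p = 0.0345), and its call ended without library 2 of aconite (-0.20, adjusted p = 0.414), without the 4 libraries set apart (-0.19, adjusted p = 0.214) and without library 1 (0.161) or 3 (0.0916) of bupleurum. Fitted on these groups alone, 8 of 10 passed, GDF15 (adjusted p = 0.0661) and ATF5 (0.595) being lost, and the share of all tested genes passing in that fit is not given here.

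Bupleurum itself gave 0 of 10 genes passing between its high and low dose (edgeR), 0 at an unadjusted p under 0.05 and 0 by DESeq2, where 0.297% of all genes passed. Its log2 differences ran from -0.12 for DDIT3 to 0.16 for ATF3. The difference between the dose effects of the extracts was tested as an interaction, and 8 genes passed, where 1.80% of all tested genes did. The dose effect of aconite exceeded that of bupleurum by 2.77 ± 0.21 on the log2 scale for CHAC1 (edgeR adjusted p = 3.32e-13), by 1.95 ± 0.12 for DDIT4 (edgeR adjusted p = 3.27e-17) and by 0.67 ± 0.09 for ATF4 (edgeR adjusted p = 1.22e-06). GDF15 (0.31 ± 0.14, edgeR adjusted p = 0.340) and ATF5 (-0.34 ± 0.17, edgeR adjusted p = 0.421) did not pass.

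**Figure D3:**
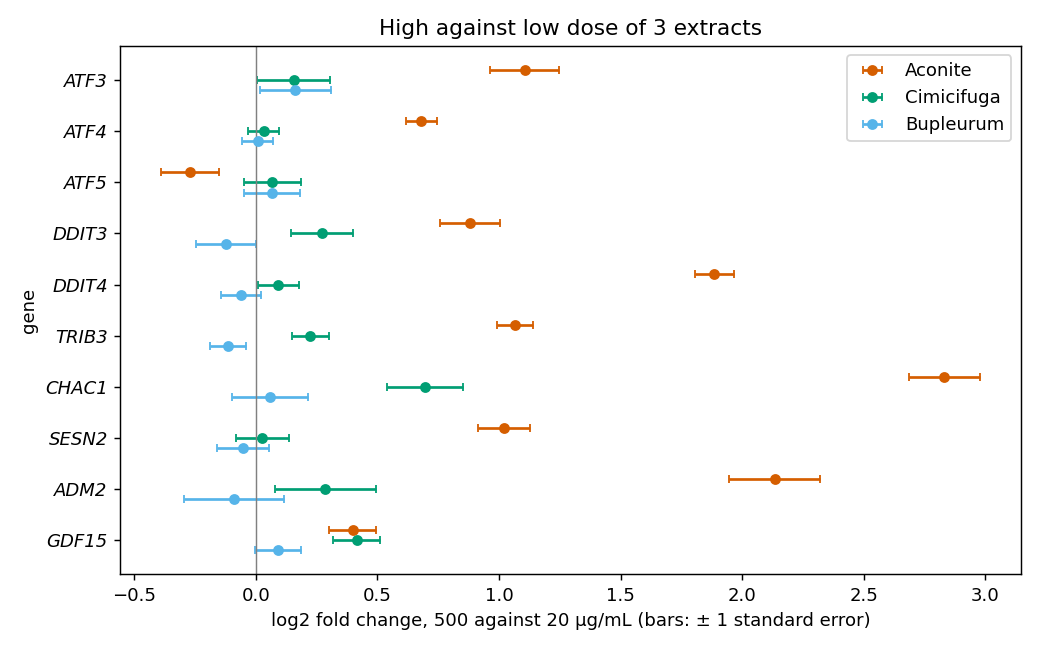
Log2 fold change between 500 and 20 µg/mL for aconite, cimicifuga and bupleurum (points, bars are ± 1 standard error). Aconite lies to the right of both others for 8 genes, with CHAC1 at 2.83 and ADM2 at 2.13, cimicifuga reaches 0.70 for CHAC1 and 0.42 for GDF15 (aconite 0.40), and bupleurum stays between -0.12 and 0.16.

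CHAC1 and GDF15 were higher with cimicifuga at the high dose than in vehicle and at its low dose, by calls that ended under some settings. With the compared groups alone and a replicate block, both calls against vehicle ended (edgeR adjusted p = 0.234 for each). Settings that ended the calls between doses are given below. CHAC1 had 4.37, 4.59 and 5.04 CPM at the high dose, 3.58, 2.93 and 3.47 CPM at the medium dose and 3.03, 2.96 and 2.71 CPM at the low dose. All 3 high-dose libraries lay above every vehicle, medium-dose and low-dose library. The log2 fold change was 0.83 ± 0.16 against vehicle (edgeR adjusted p = 0.00117) and 0.70 ± 0.16 against the low dose (edgeR adjusted p = 0.0110).

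GDF15 had 51.7, 58.1 and 64.1 CPM at the high dose of cimicifuga, 42.7, 45.1 and 50.8 CPM at the medium dose, and 44.1, 44.4 and 42.1 CPM at the low dose. Its highest library reached the level of aconite at the high dose. The log2 fold change was 0.52 ± 0.10 against vehicle (edgeR adjusted p = 0.000746) and 0.42 ± 0.10 against the low dose (edgeR adjusted p = 0.0162). Thus 2 of 10 genes passed against vehicle, where 1.33% of all genes did, and 2 of 10 against the low dose, where 0.904% did. ATF4, which had 241, 251 and 261 CPM at the high dose and 235, 245 and 256 CPM at the low dose, overlapped between them (log2 0.03 ± 0.06).

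Citrus peel shares the set of cimicifuga. At the high dose 4 genes were higher with cimicifuga, where 0.886% of all tested genes passed. These were CHAC1 (0.84 ± 0.15, edgeR adjusted p = 0.000724), GDF15 (0.64 ± 0.10, edgeR adjusted p = 3.04e-05), TRIB3 (0.37 ± 0.07, edgeR adjusted p = 0.00244) and DDIT4 (0.35 ± 0.08, edgeR adjusted p = 0.0186). TRIB3 had 47.0, 49.3 and 49.6 CPM with cimicifuga and 39.4, 36.4 and 36.8 CPM with citrus peel. DDIT4 had 20.3, 20.3 and 21.6 CPM with cimicifuga and 15.8, 16.5 and 16.4 CPM with citrus peel, which had the lowest mean of all 19 groups for that gene.

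Several of these smaller calls ended when libraries were left out. With libraries 1 and 2 of citrus peel and cimicifuga only, those with RN7SL2 as low as in vehicle, neither gene passed between the doses of cimicifuga (CHAC1 0.58, adjusted p = 0.531, GDF15 0.31, adjusted p = 0.566), and GDF15 was the 1 gene that passed against citrus peel. Between the doses the CHAC1 call ended without library 3 of the high dose (adjusted p = 0.0851) or library 2 (0.0570) or 3 (0.134) of the low dose, at log2 values of 0.64 to 0.72. The GDF15 call ended without library 2 (0.0732) or 3 (0.228) of the high dose or library 1 (0.0576), 2 (0.0699) or 3 (0.134) of the low dose, at log2 values of 0.34 to 0.43. That of DDIT4 against citrus peel ended whichever 1 of the 6 libraries was left out (adjusted p from 0.0629 to 0.151), while its log2 value stayed between 0.32 and 0.37.

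Over all 57 libraries, 0 of 10 genes passed the interaction test between cimicifuga and citrus peel (edgeR), where 0.115% of all genes did. An unadjusted p under 0.05 was seen for 5, and DESeq2 called 1, GDF15. The difference between dose effects was 0.58 ± 0.14 for GDF15 (edgeR adjusted p = 0.0772), 0.44 ± 0.12 for DDIT4 (edgeR adjusted p = 0.226) and 0.64 ± 0.23 for CHAC1 (edgeR adjusted p = 0.697). GDF15 passed in edgeR without a filter (adjusted p = 0.000455) and with the compared groups only (0.0264). With a replicate block GDF15 (0.00285) and TRIB3 (0.0494) passed. Without the 4 libraries set apart GDF15 (0.000846), TRIB3 (0.00416) and DDIT4 (0.0318) passed.

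Citrus peel, bupleurum, Yijung-tang and Banhasasim-tang gave 0 of 10 genes passing against vehicle at any dose (edgeR), as did cimicifuga at the medium and low dose. Of all tested genes, 0.0243%, 0.0% and 0.00607% passed at the high, medium and low dose of citrus peel, 1.52%, 0.406% and 0.801% at those of bupleurum, 1.14%, 1.64% and 1.51% at those of Yijung-tang, and 1.21%, 3.11% and 2.92% at those of Banhasasim-tang. At the medium and low dose of cimicifuga 0.0303% and 0.0% passed. With aconite at the low dose these make 15 of the 18 comparisons with vehicle. In them 0 to 4 of the 10 genes had an unadjusted p under 0.05, with 4 for citrus peel at the medium and bupleurum at the high dose. The share of all tested genes at that threshold is not given here. DESeq2 called a gene in 1 of these comparisons, ATF4 in Yijung-tang at the low dose (230, 220 and 222 CPM). In Banhasasim-tang at the high dose library 2 stood off from the others, with 58.1 CPM of GDF15 and 276 CPM of ATF4, against 39.3 and 40.2 CPM of GDF15 and 223 and 224 CPM of ATF4 in libraries 1 and 3. Between high and low dose, citrus peel, Yijung-tang and Banhasasim-tang each gave 0 of 10 genes (edgeR), with 1, 3 and 1 at an unadjusted p under 0.05, and DESeq2 called DDIT4 for citrus peel (log2 -0.34, DESeq2 adjusted p = 0.0306) and 0 genes for the formulas. Of all tested genes 0.0667%, 0.103% and 0.231% passed there. Banhasasim-tang and Yijung-tang at the high dose did not differ in any of the 10 genes by edgeR, with 0 at an unadjusted p under 0.05, where 0.346% of all genes passed, nor did their dose effects (0 of 10, with 2 at an unadjusted p under 0.05, where 0.0% of all genes passed), and DESeq2 called 0 in both.

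Bojungikgi-tang could be described but not tested. Of its 30 values, for 10 genes at 3 doses, 1 was past a log2 ratio of 0.5 to the vehicle mean on the log2(CPM + 1) scale. DDIT4 at the high dose had 13.1 CPM, with an exact Poisson 95% interval of 11.3 to 15.1 CPM that covers counting error only, against 19.6 to 21.0 CPM in vehicle, a log2 ratio of -0.60. Of all tested genes 3.18% were past that ratio at this dose, 3.79% at the medium and 1.94% at the low dose. At the medium and low doses DDIT4 had 15.7 and 22.2 CPM. CHAC1 had 1.93, 2.61 and 3.31 CPM at the high, medium and low dose, close to the 2.34 to 3.22 CPM of vehicle.

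The other genes of the pathway were followed in lists, described by counts. Of 30 tested ATF4 targets that supply amino acids (transporters, biosynthetic enzymes and tRNA synthetases), 27 were higher and 0 lower between the high and low dose of aconite, with a median log2 fold change of 0.59. ASNS, asparagine synthetase, had 211 to 309 CPM at the high dose against 56.9 to 64.9 CPM at the low dose (log2 2.02 ± 0.09, edgeR adjusted p = 1.30e-22). PSAT1, of serine synthesis, rose by 1.38 ± 0.06 and GARS1, the glycyl-tRNA synthetase, by 0.67 ± 0.05. Without the 4 libraries named above 28 of the 30 were higher. In the interaction with bupleurum 26 of the 30 passed.

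Of 16 tested further stress-induced ATF4 targets, 10 were higher and 1 lower with aconite, with PCK2 at 1.03 ± 0.09, EIF4EBP1, an inhibitor of cap-dependent translation, at 0.98 ± 0.11 and VEGFA at 0.69 ± 0.07. Upstream of ATF4, among 19 genes of eIF2, its kinases, phosphatases and exchange factor, 7 were higher and 1 lower, with EIF2S2, an eIF2 subunit, at 0.51 ± 0.10 and PPP1R15A, which directs a phosphatase to eIF2, at 0.29 ± 0.08. Without the 4 libraries 3 were higher and 1 lower. Of 21 further bZIP and Tribbles genes 7 were higher and 1 lower, led by JDP2, a bZIP repressor (8.39 to 9.45 CPM against 3.15 to 3.89 CPM, log2 1.36 ± 0.12, edgeR adjusted p = 6.51e-12), and CEBPG, a C/EBP that pairs with ATF4 (0.41 ± 0.06).

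**Figure D4:**
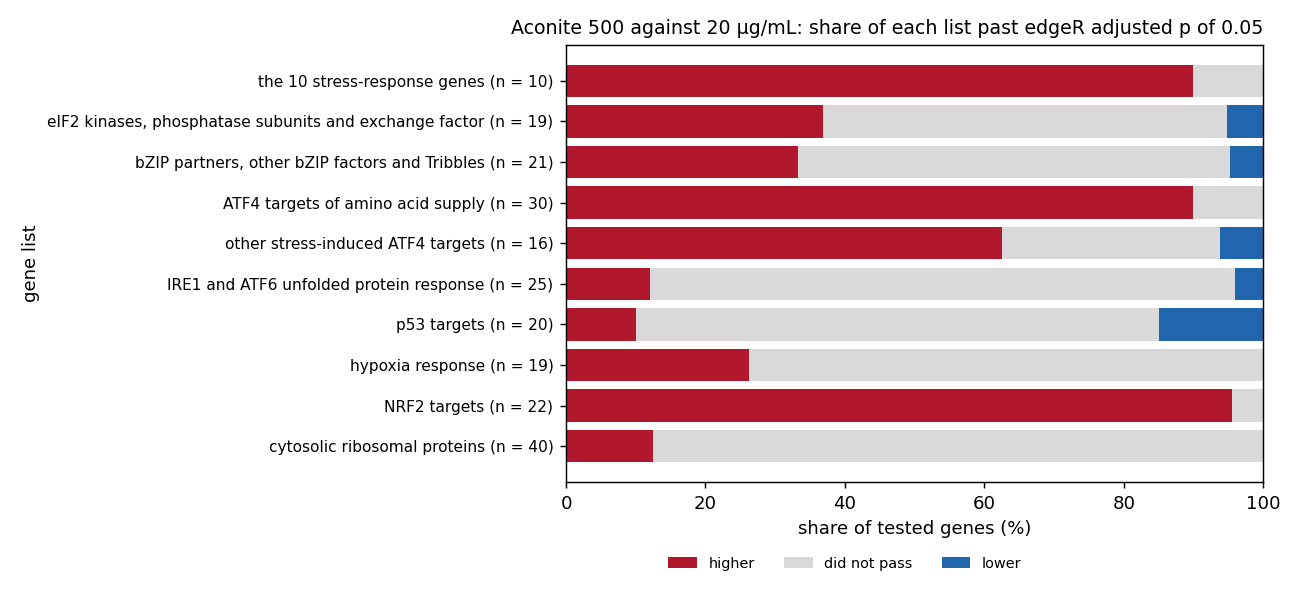
Share of the tested genes of each list that were higher (red), lower (blue) or did not pass (grey) between 500 and 20 µg/mL of aconite by edgeR's adjusted p. The amino acid supply targets of ATF4 (27 of 30) and the NRF2 targets (21 of 22) are mostly higher, as are 9 of the 10 stress response genes, whereas the unfolded protein response list has 3 higher and 1 lower of 25. Without the 4 libraries set apart, which the figure includes, that list has 7 higher and 1 lower. The amino acid supply targets then have 28 higher and the NRF2 targets 20.

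In the other arms of the unfolded protein response, of 25 genes under IRE1 and ATF6, 3 were higher (HERPUD1 at 0.42 ± 0.07, XBP1 at 0.42 ± 0.07 and the chaperone HSPA5 at 0.23 ± 0.05) and 1 lower, with a list median of 0.09. Without the 4 libraries 7 were higher and 1 lower. Of 20 p53 targets 2 were higher and 3 lower, with BTG2 at -1.11 ± 0.08 and SESN1, a relative of SESN2, at -0.65 ± 0.09. Of 19 hypoxia genes 5 were higher and 0 lower, among them VEGFA, which is also in the ATF4 list, and the glucose transporter SLC2A1 (0.44 ± 0.04). The antioxidant targets of NRF2 were higher in 21 of 22, with GCLC, of glutathione synthesis, at 0.70 ± 0.05 and HMOX1 at 1.20 ± 0.09. Of 40 cytosolic ribosomal protein genes 5 were higher and 0 lower, and without the 4 libraries 0 were higher. These tests are by edgeR, in a comparison where 5.81% of all tested genes were higher and 5.04% lower. These shares are from the fit of all 57 libraries, and those without the 4 libraries are not given here.

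The same lists were counted for cimicifuga. Between its high and low dose 3 of 30 amino acid supply genes were higher, SLC7A11, the cystine importer that is also in the NRF2 list (0.73 ± 0.09, edgeR adjusted p = 4.27e-07), ASNS (0.42 ± 0.09, edgeR adjusted p = 0.00395) and PSAT1 (0.25 ± 0.06, edgeR adjusted p = 0.0298). Without the 4 libraries 8 were higher, and with libraries 1 and 2 of citrus peel and cimicifuga only, 1. Of 22 NRF2 targets 20 were higher, with HMOX1 at 1.09 ± 0.09 and GCLM at 0.82 ± 0.07. SQSTM1, an autophagy receptor, was the 1 of 16 further ATF4 targets that passed (0.42 ± 0.06), and 0 genes of the eIF2, bZIP, unfolded protein, p53 and hypoxia lists passed by edgeR. Without the 4 libraries 3 of the further ATF4 targets, 2 bZIP genes and 2 hypoxia genes were higher and 2 p53 targets lower, with 0 in the eIF2 and unfolded protein lists. In the whole comparison 0.419% of tested genes were higher with all 57 libraries in the fit. That share without the 4 libraries, or with libraries 1 and 2 only, is not given here.

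The genes whose means over the 19 groups followed each member most closely were named by the highest Pearson r of log2 CPM, a description over group means that share libraries and rest largely on aconite at the high dose. CHAC1 followed ASNS (r = 0.976), PSAT1 and TRIB3. TRIB3 followed ASNS (0.974), DDIT4 and CHAC1, and DDIT3 followed TRIB3 (0.955), CHAC1 and ASNS. DDIT4 followed TRIB3 (0.967), PCK2 and SLC1A4, a neutral amino acid transporter. The nearest genes to SESN2 were GARS1 (0.963), CARS1 and AARS1, which charge tRNAs with glycine, cysteine and alanine.

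ATF4 stood nearest to the mitochondrial ribosomal RNAs MT-RNR1 (0.970) and MT-RNR2 and to SHMT2, a mitochondrial enzyme of serine and glycine metabolism. ATF3 stood nearest to ASS1 (0.939), an enzyme of arginine synthesis, GPT2 and WARS1, and ADM2 to RNF41 (0.949), GARS1 and MT-RNR2. The nearest genes to GDF15 were SQSTM1 (0.933), TXNRD1, a thioredoxin reductase, and ALDH3A1. The genes nearest to ATF5 were SMPD4BP (0.900), TSPAN14 and ZBTB7A. Without aconite at the high dose, over 18 groups, r between members ran from -0.15 (ATF5 and TRIB3) to 0.88 (CHAC1 and GDF15). It was 0.71 between TRIB3 and CHAC1 and between DDIT3 and TRIB3. For ATF4 it was 0.71 with ATF5, 0.56 with GDF15, 0.52 with DDIT4 and 0.48 with CHAC1, and lowest with ATF3 at 0.01.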

How the data were processed

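Messenger RNA of HT29 cells was measured by RNA sequencing in 60 libraries. The authors deposited estimated counts (RSEM expected counts) per gene with no normalization that the values show. RSEM 1.3.3, STAR 2.7.3a, Trim Galore 0.6.5, FastQC 0.11.9 and the build GRCh38 are named in the submitters' processing notes. Neither annotation version nor strand setting is given in the sources used here. Of 270 columns in the table, 60 matched sample labels by name and 210 were not used. Of the values, 8.68% were not whole, and all were rounded. Lines naming no gene numbered 0.

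The filter filterByExpr, by group, kept 16484 genes, and TMM scaling followed. In edgeR 4.0.16 (R 4.3.3) 57 libraries in 19 groups entered 1 quasi-likelihood fit, with a biological coefficient of variation of 8%. The 30 comparisons were 18 with vehicle, 6 of high against low dose, 3 between extracts of a set and 3 differences of dose effects, with Benjamini-Hochberg adjustment within each. Standard errors are the log2 fold change over the square root of F. CPM use TMM-scaled totals, and exon lengths are from GENCODE 29. Bojungikgi-tang was compared by log2(CPM + 1) ratios. The code was tested on simulated data. Symbols were matched for 56558 identifiers.

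The members, the gene lists and the tests were chosen with earlier results of these data known. Named genes were all members, up to 3 per list with the smallest adjusted p, and the 3 genes most like each member. Alternatives were DESeq2 1.42.0, RLE scaling, no filter, the compared groups alone, without and with a replicate block, leaving out libraries that stand apart, libraries 1 and 2 of citrus peel and cimicifuga only, and leaving out each library. The list counts without libraries were added after seeing the data.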

Additional observations from a re-analysis of the deposited data

Results flagged for a closer look

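The dose effect of aconite (500 against 20 µg/mL) differed from that of bupleurum, an extract of the same sample-code set, in 8 of the 10 stress response genes by the interaction test in edgeR. The differences in log2 fold change, aconite minus bupleurum, were 2.774 for CHAC1, 2.222 for ADM2, 1.947 for DDIT4, 1.178 for TRIB3, 1.073 for SESN2, 1.004 for DDIT3, 0.943 for ATF3 and 0.672 for ATF4. The edgeR adjusted p was highest for ATF3 (0.00386). All 8 calls passed without each of the 12 libraries in turn. With only these groups in the fit the ATF3 call ended (adjusted p = 0.0934). When a replicate block was added to that fit, the calls of ATF3 (0.135) and DDIT3 (0.0518) ended.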

How the results depend on the processing

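Of 620 values of called genes under other settings, 556 stayed called, 64 lost the call and 0 reversed. Of 3260 values of genes not called, 30 became called. Shares of all tested genes passing under the other settings are not given here. For aconite at the high dose, the 9 genes against the low dose became 8 with the compared groups only and 10 without a filter, and the 10 against vehicle and against bupleurum became 7 and 8 with the compared groups only.

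Counts that moved by over 1.5 times, where called genes were few: aconite at the medium dose against vehicle fell from 2 to 1 with the compared groups only. Without a filter, 0 became 1 against vehicle for aconite low, bupleurum high, Banhasasim-tang low and medium, and Yijung-tang low and medium, and for Yijung-tang between doses and the interaction of cimicifuga and citrus peel. Without the 4 libraries that stand apart, 0 became 1 for aconite low against vehicle, 2 for bupleurum high against vehicle, 1 for citrus peel between doses and 3 for that interaction. DESeq2 gave 1 in place of 0 for Yijung-tang low, citrus peel between doses and that interaction, as did the compared groups only for the last. With libraries 1 and 2 of citrus peel and cimicifuga only, cimicifuga against citrus peel fell from 4 to 1 and between doses from 2 to 0; without the 4 libraries or with the compared groups only the latter was 3. The 1 value of Bojungikgi-tang became 2 at a pseudocount of 0.25 and 0 at 5. The cause was not tested.

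Leaving out 1 library at a time gave 9 to 10 genes for aconite high against vehicle, low dose and bupleurum, 8 for their interaction, 1 to 2 for aconite medium, 2 for cimicifuga against vehicle, 0 to 2 between its doses, 3 against citrus peel, and 0 to 1 for Banhasasim-tang low and Yijung-tang low against vehicle.

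Every pair of same-numbered libraries correlated above 0.1 in 0 of 27 comparisons, so by that rule replicate numbers did not pair the libraries. Lower positive values were seen for cimicifuga against citrus peel at the high dose (r = 0.073, 0.032 and 0.073). Between high and low dose r was 0.061 to 0.065 for citrus peel and -0.028 to 0.006 for cimicifuga. Library 3 of every citrus peel and cimicifuga group had more RN7SL2 (66.8 to 113 CPM) than libraries 1 and 2. Whether the numbers mark shared handling there was not tested. With a replicate block the counts were 3 for aconite high against vehicle, 2 against its low dose, 4 against bupleurum, 6 for their interaction, 1 for aconite medium, 0 for cimicifuga high against vehicle, 2 for the interaction of cimicifuga and citrus peel, 2 for Yijung-tang low against vehicle and 1 between its doses. In vehicle ADM2, ATF3 and CHAC1 lay at 1.47 to 3.22 CPM, so their values rest on few counts.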
